A study of Mus musculus with 10 samples.

Results

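The T cell receptor loci of regulatory T cells (Tregs, the Foxp3-expressing CD4 T cells that hold other immune cells in check) are described here gene by gene. The members are all rows of the count table whose symbol names a V, D or J segment or a constant gene of the alpha, beta, gamma or delta locus, 232 of 27179 rows. They comprise 166 alpha rows (114 V, 51 J and 1 constant gene), 41 beta rows (24 V, 2 D, 13 J and 2 constant genes), 15 gamma rows (7 V, 4 J and 4 constant genes) and 10 delta rows (5 V, 2 D, 2 J and 1 constant gene). In GRCm38 the alpha members span chr14:52427967-54224198, the beta members chr6:40891296-41558371 and the gamma members chr13:19178042-19352343. The delta members lie inside the alpha locus, at chr14:53881612-54149201.

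RNA was sequenced from CD4+ TCRb+ YFP+ cells of C57BL/6 mice. Control cells (WT) carried Foxp3Cre-YFP, a Cre recombinase with a yellow fluorescent reporter that is active in Foxp3-expressing cells. The other cells (Maf-KO) carried the same Foxp3Cre-YFP with Maffl/fl, so that Maf, which encodes the transcription factor c-Maf, is deleted only where Foxp3 is or was expressed. The age of the mice is not stated. Gut, which stands for colon plus small intestine, gave 2 libraries per genotype and spleen gave 3. The sort requires the beta chain at the cell surface, so receptor RNA of the alpha and beta loci was selected for before sequencing. Nothing in the labels says whether libraries come from different animals, so p-values reflect only how these samples vary.

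A T cell receptor chain is encoded by a gene assembled in the thymus, where a V segment is joined to a J segment, in the beta and delta loci through a D segment, and is then spliced to a constant gene. The V segment contacts antigen together with the joined region, the J segment carries the chain into its constant part, and the constant gene anchors the chain and pairs it with its partner and with CD3. Joining a V alpha to a J alpha segment removes the delta genes between them from that chromosome. Gamma and delta chains form the receptor of gamma-delta T cells, a separate lineage that is common in the gut wall. The gamma locus can also be rearranged in cells of the alpha-beta lineage.

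Libraries held 8567035 to 13983965 counts, of which receptor members took 0.311 to 0.375% in gut and 0.388 to 0.455% in spleen. A floor of 3 counts equals 0.215 to 0.35 CPM. CPM, counts relative to library size, are scaled throughout with factors of edgeR's TMM method, which were 0.887 to 0.912 in gut and 1.06 to 1.12 in spleen. The labels were checked on Maf itself, which had 859 and 918 counts in WT gut, 312 to 484 in WT spleen and 2 to 10 in the 5 Maf-KO libraries. The Treg markers Foxp3, Ctla4, Il2ra, Ikzf2, Tnfrsf18 and Cd4 were present in all libraries, with a summed level of 7099 to 8376 CPM in gut and 2120 to 2538 CPM in spleen. Ctla4 made up most of the gut sum (4321 to 5639 CPM, against 239 to 455 CPM in spleen), and Il2ra was lower in WT gut (log2 -0.77, adjusted p = 0.0293, edgeR). The B cell gene Ms4a1 was lower in gut (3.51 to 7.83 CPM against 27.6 to 103.5 CPM in spleen), and plasma cell genes such as Jchain were higher in gut (summed level 1132 to 6408 CPM against 52.7 to 125 CPM). Of the 232 members, 150 passed the filter on low counts and entered the test. The other 82 did not, and 5 had no count in any library.

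The constant genes gave the level of each locus. Per length, in the authors' log2 FPKM values turned back to FPKM and averaged over the 10 libraries, Trbc2 stood at 1509, Trac at 1423 and Trbc1 at 764. The order of Trac and Trbc2 differed between tissues. The gamma constants were far below, with Tcrg-C2 at 11, Tcrg-C1 at 7.99 and Tcrg-C4 at 5.95, and the delta constant Trdc stood at 5.09. Tcrg-C3 had 0 to 2 counts per library. RNA of the gamma and delta constants was therefore present at a small fraction of the alpha and beta level in all 10 libraries.

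**Figure D1:**
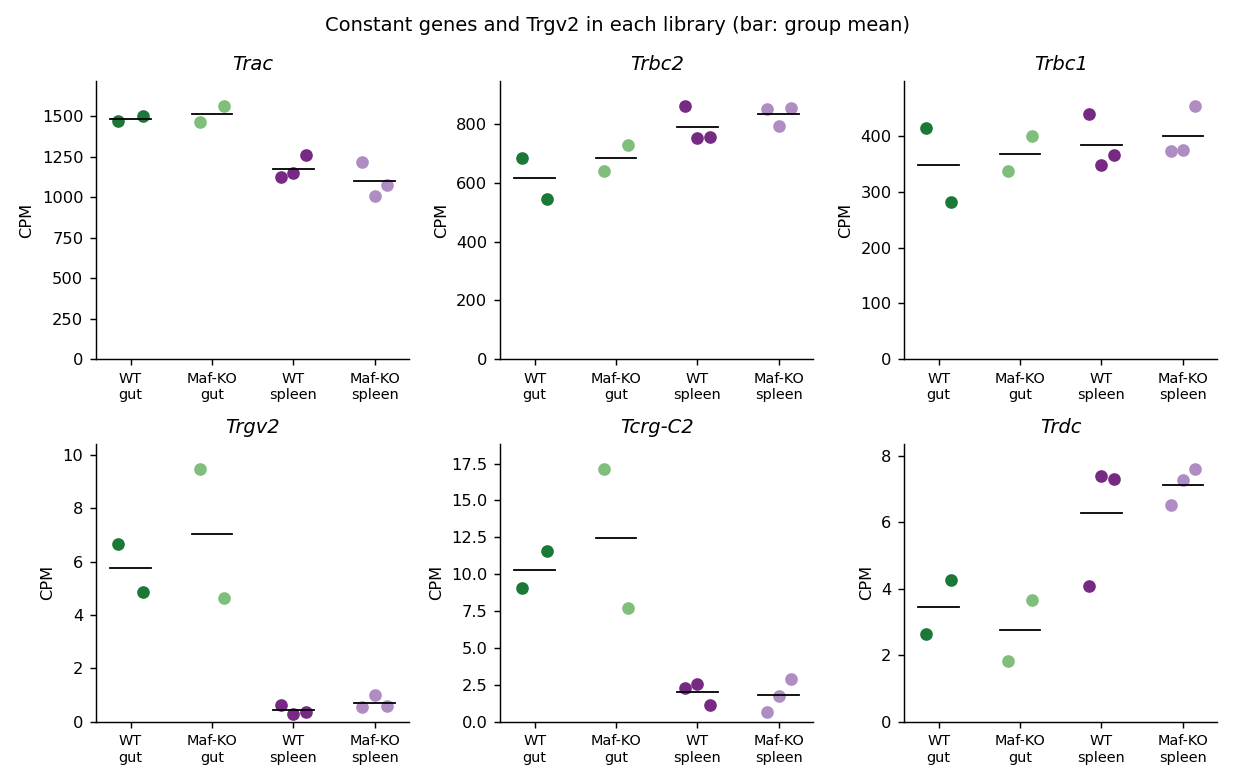
CPM (vertical axes, from 0) of 5 constant genes and the gamma V segment Trgv2 in the 10 libraries, by group; points are libraries and bars are group means. Trgv2 was at 4.63 to 9.48 CPM in gut and 0.308 to 0.991 CPM in spleen, and Trac was at 1467 to 1562 CPM in gut and 1005 to 1258 CPM in spleen.

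In WT the largest called tissue difference among the members lay in the gamma locus, and in Maf-KO only that of Traj58 was larger. Trgv2, a gamma V segment, was at 6.66 and 4.85 CPM in WT gut, 9.48 and 4.63 CPM in Maf-KO gut, 0.622, 0.308 and 0.379 CPM in WT spleen and 0.542, 0.991 and 0.585 CPM in Maf-KO spleen. Every gut library was above every spleen library. These values rest on 41 to 109 counts in gut and 4 to 9 counts in spleen, where the level is close to the floor. Trgv2 therefore passed the filter on low counts only through gut, and 1 of 7 gamma V segments was tested. Traj58 passed only through spleen, so this ranking includes rows selected through the tissue where they are high. Trgv2 was higher in gut by 3.69 on the log2 scale in WT (SE 0.47, adjusted p = 0.000369, edgeR quasi-likelihood test with Benjamini-Hochberg adjustment over 13214 genes) and by 3.30 in Maf-KO (SE 0.45, adjusted p = 0.000537, same test).

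Tcrg-C2, the constant gene to which Trgv2 is joined through Trgj2, followed it. It was at 9.04 and 11.6 CPM in WT gut, 17.1 and 7.74 CPM in Maf-KO gut, 2.31, 2.54 and 1.14 CPM in WT spleen and 0.65, 1.76 and 2.92 CPM in Maf-KO spleen, so gut and spleen did not overlap. The difference was 2.35 in WT (SE 0.53, adjusted p = 0.00885, edgeR) and 2.79 in Maf-KO (SE 0.54, adjusted p = 0.00398, edgeR). The other gamma constants were not called in either genotype. Tcrg-C1 differed by -0.18 in WT and 0.53 in Maf-KO, with adjusted p of 0.841 and 0.505, and Tcrg-C4 by -0.33 and 0.71, with adjusted p of 0.654 and 0.278 (edgeR). Whether the tissue effect of Tcrg-C2 differs from that of its neighbours was not tested.

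The composition of gamma RNA within a library shows the same values without any scaling between libraries. Tcrg-C2 made up 53.7% (95% Wilson interval 45.3 to 62), 72.1% (64 to 78.9), 59% (53.6 to 64.1) and 50% (43 to 57) of gamma constant counts in the 4 gut libraries. In the 6 spleen libraries it made up 13% (6.12 to 25.7) to 25.8% (16.6 to 37.9). Trgv2 made up 69.1 to 79% of gamma V counts in gut. In WT spleen it made up 26.7 to 36.8%, where only 11 to 19 gamma V counts were seen per library. The interval of WT spleen 2 reached up to 64.6% and that of Maf-KO gut 3 down to 58.5%, so intervals of gut and WT spleen overlapped. In Maf-KO spleen Trgv2 made up 46.2 to 69.2%, where only 9 to 13 gamma V counts were seen per library, and gut and Maf-KO spleen overlapped. These intervals cover counting error only.

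Trgv2, Trgj2 and Tcrg-C2 are the gamma members annotated on the minus strand (chr13:19336573-19337026, chr13:19311245-19311304 and chr13:19305060-19307551), and the other 12 lie on the plus strand. Several gamma segments are close copies of each other, so reads can be hard to place, and the sources used here do not say how reads matching several places were counted. The last 100 bases of the Trgv2 transcript are shown with the same stretch of Tcrg-V1, the closer of the 2 gamma V segments compared with it, and the first 150 bases of Tcrg-C2 with those of Tcrg-C1. Sequences are from GENCODE M21 transcripts of GRCm38, 5′ to 3′, and capitals mark bases that differ from Trgv2 or from Tcrg-C2.
Trgv2: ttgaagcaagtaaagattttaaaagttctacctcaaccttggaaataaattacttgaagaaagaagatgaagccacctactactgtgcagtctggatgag
Tcrg-V1: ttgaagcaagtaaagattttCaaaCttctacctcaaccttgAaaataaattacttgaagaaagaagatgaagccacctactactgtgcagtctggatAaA
Tcrg-C2: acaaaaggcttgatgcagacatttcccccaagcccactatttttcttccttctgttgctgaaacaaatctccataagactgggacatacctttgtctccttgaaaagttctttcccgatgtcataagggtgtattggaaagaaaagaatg
Tcrg-C1: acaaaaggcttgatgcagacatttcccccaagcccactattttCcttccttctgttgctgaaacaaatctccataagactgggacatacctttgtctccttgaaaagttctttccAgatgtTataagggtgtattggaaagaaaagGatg

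Trgv2 and Tcrg-V1 shared 95.2% of 374 aligned bases, where the Trgv2 transcript has 491 bases. Tcrg-C2 and Tcrg-C1 shared 97.3% of their first 300 bases. Of all stretches of 50 bases in a transcript, 7.01% of those of Trgv2 also occur in another gamma V segment. Of those of Tcrg-C2, 25.4% occur in another gamma constant gene. Here and below, stretches were compared only between members of the same locus and segment class. Tcrg-V1 itself had 0 to 8 counts in every library. Tcrg-V6, which like Tcrg-V1 took about 17% of gamma V counts on average, had 3 to 8 counts in gut and 0 to 6 in spleen. The remaining gamma V segments had 0 to 8 counts per library.

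The delta constant gene pointed the other way. Trdc was at 2.64 and 4.26 CPM in WT gut, 1.83 and 3.67 CPM in Maf-KO gut, 4.09, 7.39 and 7.3 CPM in WT spleen and 6.5, 7.27 and 7.6 CPM in Maf-KO spleen. Gut and spleen overlapped only between WT gut 3 and WT spleen 1. Trdc was lower in Maf-KO gut than in Maf-KO spleen by a log2 value of -1.37 (SE 0.39, adjusted p = 0.0269, edgeR). In WT the difference was -0.86 (SE 0.39) and was not called (adjusted p = 0.132, edgeR). The Maf-KO call was lost without Maf-KO gut 2 (adjusted p = 0.176), Maf-KO spleen 2 (0.0587) or Maf-KO spleen 3 (0.0606). The most abundant delta V segments, Trdv1 and Trdv2-2, differed by -1.26 and -1.39 in WT and by 0.01 and -0.96 in Maf-KO, none called (adjusted p = 0.0559, 0.101, 0.986 and 0.228, edgeR). Trdv4 had 1 to 9 counts per library.

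Markers of gamma-delta T cells were mixed. Sox13 and Zbtb16 were at 0 to 0.473 CPM and Cd163l1 at 0 to 1.13 CPM in all 10 libraries. The summed level of the 7 markers was 23.1 to 36.7 CPM in gut and 26.3 to 66.4 CPM in spleen. Of the 4 that could be tested, 1 was lower in gut in WT (Blk, also a B cell gene). In Maf-KO 2 were lower (Blk and Etv5) and 1 was higher, 5830411N06Rik (log2 2.60, adjusted p = 0.0116, edgeR). The latter was at 1.76 to 2.55 CPM in gut and 0.108 to 0.711 CPM in spleen. It passed the filter on low counts only through gut. Among markers of CD8, NK and innate lymphoid cells, the cytotoxic genes Gzma and Prf1 and the chemokine gene Xcl1 were higher in gut and Cd8b1 and Klrd1 were lower, in both genotypes. Eomes was also lower in Maf-KO gut. Gzma reached 2608 to 4497 CPM in gut against 5.2 to 20.2 CPM in spleen, and the part of these markers in the gamma result was not tested. In bulk RNA, fewer cells of a type and less RNA per cell cannot be told apart.

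The alpha and beta constants shifted against each other between tissues. Trac was at 1473 and 1499 CPM in WT gut, 1467 and 1562 CPM in Maf-KO gut, 1122, 1151 and 1258 CPM in WT spleen and 1217, 1005 and 1075 CPM in Maf-KO spleen. All gut libraries were above all spleen libraries. The log2 difference was 0.46 in Maf-KO (SE 0.12, adjusted p = 0.0157, edgeR) and 0.34 in WT (SE 0.12, adjusted p = 0.059, edgeR, not called). With library totals in place of TMM factors, gut and spleen overlapped, and the differences shrank to 0.20 (adjusted p = 0.19) and 0.07 (adjusted p = 0.665). That scaling, added after the data were seen, moved the median of all tested genes from -0.02 to -0.28 in Maf-KO and from -0.03 to -0.30 in WT. The Maf-KO call was also lost without Maf-KO gut 2 (adjusted p = 0.0523), Maf-KO gut 3 (0.108), Maf-KO spleen 2 (0.056) or Maf-KO spleen 3 (0.0525).

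The beta constants had negative differences in gut that were not called. Trbc2 was at 686 and 545 CPM in WT gut, 642 and 729 CPM in Maf-KO gut, 861, 752 and 756 CPM in WT spleen and 853, 793 and 857 CPM in Maf-KO spleen, again without overlap. Its log2 difference was -0.36 in WT (SE 0.13, adjusted p = 0.0706, edgeR) and -0.28 in Maf-KO (SE 0.13, adjusted p = 0.142, edgeR). Trbc1 ranged from 281 to 414 CPM in gut and from 348 to 454 CPM in spleen and gave adjusted p of 0.591 and 0.666 (edgeR). With library totals in place of TMM, Trbc2 was called lower in gut in both genotypes (-0.63, adjusted p = 0.00727, and -0.54, adjusted p = 0.0151). DESeq2 called Trac (adjusted p = 0.0115) and Trbc2 (0.0411) in WT. Libraries whose titles share a number can be treated as pairs, though the labels do not say what the number names. With that number as a fixed block in edgeR, which left 2 residual degrees of freedom, Trac in WT (adjusted p = 0.0392) and Trbc2 in WT (0.015) were called. Trbc2 in Maf-KO was not called in that fit (0.0642).

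The ratio of alpha to beta constant counts within a library needs no scaling. Trac counts divided by the summed counts of Trbc1 and Trbc2 gave 1.34 and 1.81 in WT gut and 1.50 and 1.38 in Maf-KO gut. In WT spleen the ratio was 0.862, 1.05 and 1.12, and in Maf-KO spleen 0.993, 0.86 and 0.82. The lowest gut library was above the highest spleen library. The means were 1.58 ± 0.337 (SD, n = 2), 1.44 ± 0.0813 (SD, n = 2), 1.01 ± 0.133 (SD, n = 3) and 0.891 ± 0.0903 (SD, n = 3), in the same order. The ratio was computed over members and is given without a test.

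**Figure D2:**
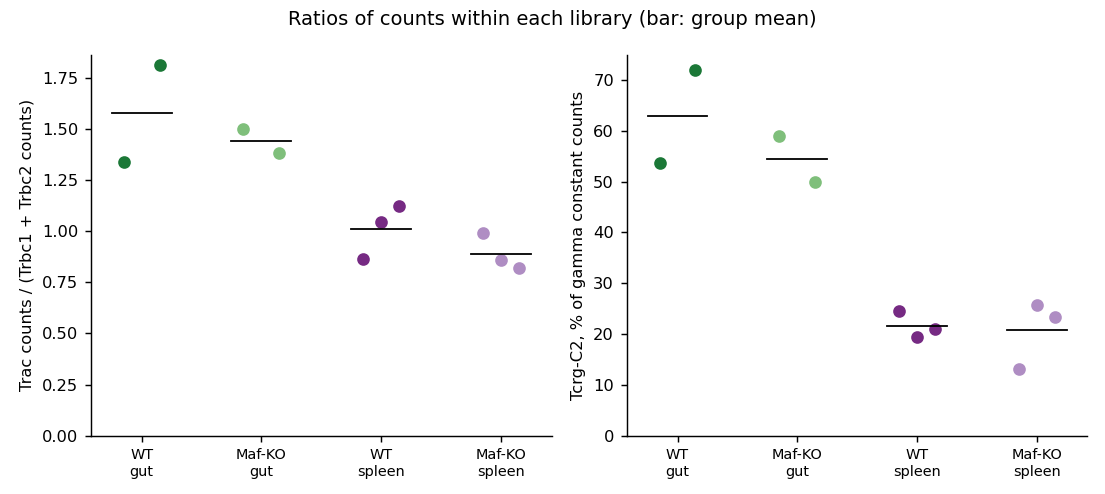
Left, Trac counts divided by the sum of Trbc1 and Trbc2 counts; right, Tcrg-C2 as a percentage of all gamma constant counts; points are libraries and bars are group means, and both axes start at 0. Gut libraries lie at 1.34 to 1.81 on the left and 50 to 72.1% on the right, above all spleen libraries.

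Trbc1 and Trbc2 encode nearly the same protein, and each beta chain uses the constant gene of the J cluster it was joined in or the one behind it. Trbc1 took 34 to 37.6% of beta constant counts in gut and 30.5 to 34.6% in spleen. The first 300 bases of both transcripts differ at a single position (99.7% identical). Over the whole transcripts, 41.1% of the 50-base stretches of Trbc1 and 44% of those of Trbc2 occur in the other beta constant gene.

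Between gut and spleen, 12 of 150 tested members were called in WT (5 higher and 7 lower in gut). This is 8% of tested members, where 28.0% of all 13214 genes were called, 14.7% higher and 13.3% lower. In Maf-KO 15 members were called (9 higher and 6 lower), or 10%, where 28.5% of all genes were called, 14.4% higher and 14.1% lower. The members' shares were below the background in both genotypes. Comparisons with all genes, here and below, were not matched for count level, and many tested members had few counts, which limits their calls. Leaving out WT gut 3 or WT spleen 1 left 6 calls in WT, and leaving out WT spleen 2 left 7. Over all genes these fits called 2904, 3186 and 2947 in WT, against 3703 with all libraries. In Maf-KO, 4 calls were left without Maf-KO gut 2, 5 without Maf-KO gut 3 or Maf-KO spleen 3, and 9 without WT spleen 2 or Maf-KO spleen 1. Over all genes the Maf-KO calls fell from 3772 to 2393 without Maf-KO gut 2 and 2118 without Maf-KO gut 3. They were 3032 without Maf-KO spleen 3, 3605 without WT spleen 2 and 3186 without Maf-KO spleen 1. With DESeq2 size factors 12 members were called in WT as well, 7 higher and 5 lower, not all of them the same ones, since Trbv13-3 and Trbv15 were lost. With library totals in place of TMM, 3 members were higher and 23 lower in WT (2% and 15.3% of tested members, where 10% and 29.8% of all genes were higher and lower). In Maf-KO 3 were higher and 13 lower (2% and 8.67%, against 9.41% and 28.0% of all genes). The title number as a fixed block left 2 residual degrees of freedom. In that fit 27 members were called in WT (8 higher and 19 lower), where 37.2% of all genes were called. In Maf-KO 22 were called (12 higher and 10 lower), where 39.7% of all genes were called. As a random effect in limma-voom the title number gave 30 calls, or 20% of tested members, in each genotype, where 41.6% and 43.7% of all genes were called. The comparisons in WT and Maf-KO set different libraries against each other. Both take their spread and scaling from 1 fit of all 10 libraries, so their calls are not independent. The members called in both were 5 (Trgv2, Tcrg-C2, Trav13-1, Trav7-5 and Trbv14), which is 41.7% of the WT calls and 33.3% of the Maf-KO calls. Over all genes 76.3% of the WT calls and 74.9% of the Maf-KO calls were called in both.

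Of these 27 calls, 5 were kept under all 19 alternatives: Trgv2 and Tcrg-C2 in both genotypes and Trbv20 in WT. Each of the other 22 was lost when some single library was left out, several under other settings too, and none changed direction. The alternatives reuse the same libraries, so they are not independent support for a call.

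Most beta V segments had negative differences between gut and spleen. Of 21 tested, 6 were lower in WT gut (28.6%, against 13.3% of all genes) and none higher, and 20 had a negative log2 difference, with a median of -0.46 against -0.03 over all tested genes. In Maf-KO 3 were lower (14.3%, near the 14.1% of all genes) and none higher, 17 were negative and the median was -0.22 against -0.02. The 13 J beta segments were all negative in WT (median -0.49, 1 called) and 12 were negative in Maf-KO (median -0.34, none called). Both D beta segments were negative in both genotypes and not called. On an assembled receptor RNA, V, D, J and constant gene lie together, so these rows are not independent of each other or of Trbc1 and Trbc2. Whether the D and J reads came from such RNA was not tested.

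**Figure D3:**
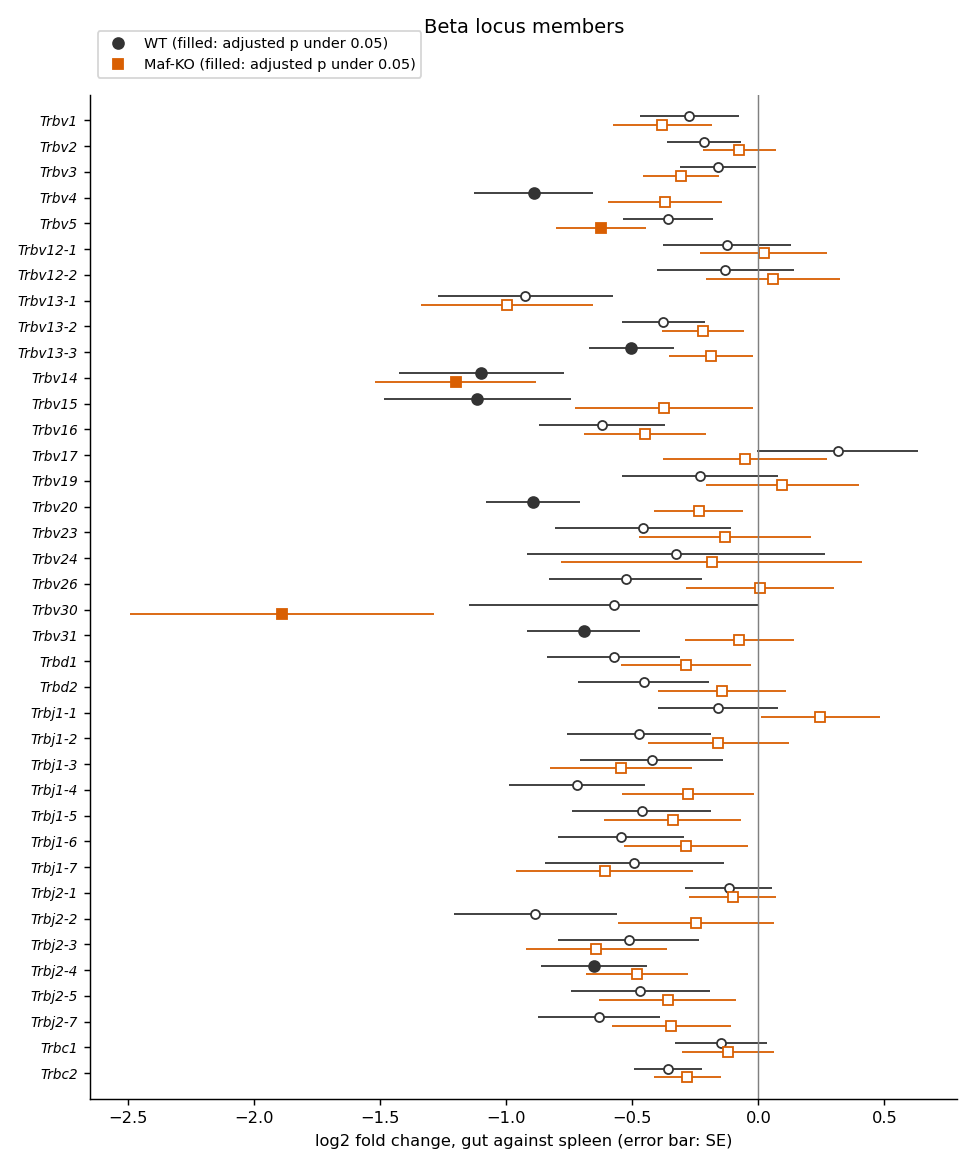
Log2 fold change of gut against spleen (horizontal axis) with its SE for the 38 tested beta members in WT (circles) and Maf-KO (squares), in the order V, D, J and constant genes; filled symbols have an adjusted p under 0.05. All but 1 of the 21 V segments and all 13 J segments lie left of 0 in WT.

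Trbv20 gave the lowest adjusted p among beta members. It was at 16.5 and 17.1 CPM in WT gut, 27.2 and 37.9 CPM in Maf-KO gut, 36.4, 27.9 and 29.5 CPM in WT spleen and 35, 41.7 and 38.5 CPM in Maf-KO spleen. Both WT gut libraries lay below all others. The log2 difference between gut and spleen was -0.90 in WT (SE 0.19, adjusted p = 0.00571, edgeR) and -0.24 in Maf-KO (SE 0.18, adjusted p = 0.355, edgeR). The difference between these differences was 0.66 (SE 0.25) and was not called (unadjusted p = 0.0268, adjusted p = 0.9999, edgeR).

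Trbv14 was called in both genotypes. It was at 6.41 and 4.85 CPM in WT gut, 5.39 and 7.02 CPM in Maf-KO gut, 12.9, 14.3 and 8.92 CPM in WT spleen and 19.6, 11.6 and 11.7 CPM in Maf-KO spleen, with no overlap between tissues. The log2 differences were -1.10 (SE 0.33, adjusted p = 0.0303, edgeR) and -1.20 (SE 0.32, adjusted p = 0.019, edgeR). The WT call was lost without either WT gut library or without WT spleen 1 or 2 (adjusted p = 0.0682 to 0.162), and the Maf-KO call without either Maf-KO gut library or without Maf-KO spleen 1 (0.0528 to 0.128).

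The other beta V segments called lower in WT gut were Trbv4 (log2 -0.89), Trbv15 (-1.11), Trbv31 (-0.69) and Trbv13-3 (-0.50), with adjusted p from 0.0182 to 0.0481 (edgeR). Trbv4 was lost without WT gut 3 (adjusted p = 0.128). Trbv15 was lost without either WT gut library or without WT spleen 1, WT spleen 2 or Maf-KO spleen 2 (up to 0.248), and Trbv31 without WT gut 3, WT spleen 1 or 2, either Maf-KO gut library or Maf-KO spleen 2 or 3 (up to 0.256). Trbv13-3 was lost without any single gut library, any WT spleen library or Maf-KO spleen 3 (up to 0.158). Trbv31 is the beta V segment annotated on the minus strand, at chr6:41557693-41558371, beyond the constant genes. In Maf-KO the others were Trbv5 (-0.62, adjusted p = 0.0265) and Trbv30 (-1.89, adjusted p = 0.0407, edgeR). Trbv30 was at 1.22 and 2.08 CPM in Maf-KO gut against 5.84 to 6.4 CPM in Maf-KO spleen, and at 5.9 and 0.946 CPM in WT gut, where the libraries differed from each other. Trbv5 was lost without either Maf-KO gut library or without Maf-KO spleen 1 or 3 (up to 0.166). Trbv30 was lost without either Maf-KO gut library, any Maf-KO spleen library or WT spleen 1 or 2 (up to 0.204). No beta V segment had most of its 50-base stretches in common with another beta V segment, so copies bear less on these rows than on the alpha V rows.

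Among J segments the calls were Trbj2-4 in WT (log2 -0.65, SE 0.21, adjusted p = 0.0422) and Traj58 and Traj28 in Maf-KO (-3.38 and -1.38, adjusted p = 0.0378 and 0.0485, edgeR). Traj58 had 0 to 4 counts per gut library and 5 to 22 counts per spleen library. Its tissue difference in WT was -2.32 (adjusted p = 0.0921, edgeR). Traj28 was at 0.783 and 0.399 CPM in Maf-KO gut and 1.27 to 1.73 CPM in Maf-KO spleen, but at 1.26 and 1.42 CPM in WT gut, so the tissues overlapped over all libraries. Trbj2-4 was lost without any gut library, any WT spleen library or Maf-KO spleen 1 or 2 (up to 0.196), and Traj28 without any single library (up to 0.309). Traj58 was lost without either Maf-KO gut library or without WT spleen 2 or Maf-KO spleen 1 or 3 (up to 0.182). A J segment carries the phenylalanine and glycine motif that closes the antigen-binding loop. The letters TTNGGNNNNGGN, searched on the coding strand only with N for any base, occurred in 57 of 70 J members (81.4%), and capitals mark them in the called segments, which come from the same transcripts as above.
Trbj2-4: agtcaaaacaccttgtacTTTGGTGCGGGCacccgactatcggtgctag
Traj58: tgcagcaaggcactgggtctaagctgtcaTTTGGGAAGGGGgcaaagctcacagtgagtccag
Traj28: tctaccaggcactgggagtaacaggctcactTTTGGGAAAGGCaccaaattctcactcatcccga

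Few alpha V segments were called between tissues. Of 66 tested, 3 were higher in WT gut (4.55%, where 14.7% of all genes were higher) and none lower, 33 were positive and the median log2 difference was 0.01. In Maf-KO 6 were higher (9.09%, where 14.4% of all genes were higher) and none lower, 46 were positive and the median was 0.36. The 38 tested J alpha segments had medians of -0.13 in WT and -0.08 in Maf-KO.

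Trav13-1 and Trav7-5 were called in both genotypes. Trav13-1 was at 16.6 and 13.9 CPM in WT gut, 31.5 and 15.5 CPM in Maf-KO gut and 8.01 to 10 CPM in the 6 spleen libraries. All gut libraries were above all spleen libraries. Its log2 differences were 0.86 in WT (SE 0.28, adjusted p = 0.0414, edgeR) and 1.39 in Maf-KO (SE 0.27, adjusted p = 0.00413, edgeR). The WT call was lost under 11 alternatives, among them without either WT gut library, without any single spleen library, with the title number as a fixed block (adjusted p = 0.0648), with limma-voom (0.0854) and with library totals (0.115), and adjusted p ran up to 0.206. The Maf-KO call was lost without Maf-KO gut 2 (log2 0.79, adjusted p = 0.0506).

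Trav7-5 was at 13.8 and 27.2 CPM in WT gut, 12.5 and 11.9 CPM in Maf-KO gut and 6.62 to 9.39 CPM in spleen, also without overlap. Its log2 differences were 1.20 (SE 0.26, adjusted p = 0.00661, edgeR) and 0.78 (SE 0.26, adjusted p = 0.048, edgeR). WT gut 3 stood apart from the other libraries, and without it the WT difference was 0.63 (adjusted p = 0.0828). The Maf-KO call was lost without either Maf-KO gut library or without any single spleen library (adjusted p = 0.0617 to 0.167).

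The other alpha V segment called in WT was Trav6-5 (log2 1.23, adjusted p = 0.0368, edgeR). In Maf-KO Trav3-1 (1.32), Trav4-3 (1.08), Trav7-4 (0.87) and Trav6n-6 (0.96) were also higher in gut, with adjusted p from 0.024 to 0.0445 (edgeR). Trav7-4 was at 23.7 and 26.6 CPM in Maf-KO gut and 9.92 and 11.2 CPM in WT gut. The 6 spleen libraries ranged from 10.3 to 20.2 CPM, so Maf-KO gut lay above all others. Trav6-5 was lost without any gut library or any WT spleen library (adjusted p up to 0.142). The 4 Maf-KO calls were lost without either Maf-KO gut library, and each also without 2 or more spleen libraries, with adjusted p up to 0.133 for Trav3-1, 0.116 for Trav4-3, 0.179 for Trav7-4 and 0.215 for Trav6n-6. With library totals Trav6-5 and these 4 were also lost.

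The alpha V locus of C57BL/6 mice contains duplicated blocks, and its V segments are often near copies. Of 114 alpha V members, 70 had at least 50% of their 50-base stretches in another alpha V member. Their median mean count per library was 2.85 against 40.5 for the other 44. Such copies can lose reads or trade them with each other, so a value for 1 row is uncertain. The share in common was 75.1% for Trav7-4, 72.4% for Trav6-5, 45.4% for Trav13-1 and 11.1% for Trav7-5.

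With edgeR, no member was called between genotypes. In gut 0 of 150 tested members were called between Maf-KO and WT, where 0.151% of all genes were called, and 9 members had an unadjusted p under 0.05 (edgeR). In spleen 0 were called, where 0.0151% of all genes were called, and 4 had an unadjusted p under 0.05. DESeq2 called 2 members higher in Maf-KO gut, where it called 0.765% of 13989 genes. These were Trbv20 (log2 0.96, SE 0.24, adjusted p = 0.011) and Trav7-4 (1.25, SE 0.34, adjusted p = 0.0319), and edgeR gave them adjusted p of 0.17 and 0.265. The test of whether the genotype effect differs between tissues called 0 members and 0% of all genes, with 9 members at an unadjusted p under 0.05.

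None of the constant genes was called between genotypes. Trac differed by 0.03 in gut (SE 0.13) and -0.10 in spleen (SE 0.11), Trbc2 by 0.15 (SE 0.14) and 0.08 (SE 0.12), and Trbc1 by 0.09 (SE 0.20) and 0.06 (SE 0.16). Trgv2 differed by 0.29 (SE 0.44) and 0.68 (SE 0.50), and Tcrg-C2 by 0.27 (SE 0.56) and -0.16 (SE 0.53). Tcrg-C1, Tcrg-C4 and Trdc differed by 0.47, 0.91 and -0.32 in gut and by -0.25, -0.13 and 0.19 in spleen. The members' median was 0.16 in gut and -0.09 in spleen, with 97 and 54 of 150 positive, against 0.00 and -0.01 for all genes. With 2 gut libraries a genotype, differences as small as these SEs were not detectable.

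**Figure D4:**
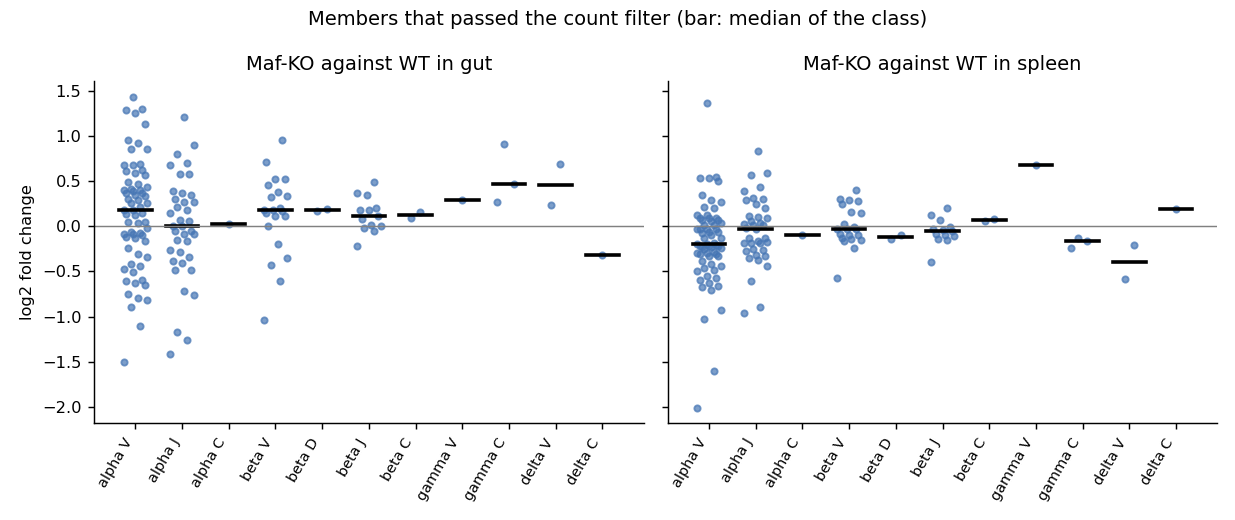
Log2 fold change of Maf-KO against WT in gut (left) and spleen (right) for the 150 tested members, grouped by locus and segment class; points are members and bars are class medians. Class medians of alpha V were 0.18 in gut and -0.20 in spleen, and no member had an adjusted p under 0.05 with edgeR (DESeq2 called 2 in gut).

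V usage describes how a locus's RNA is spread over its segments. In the beta locus Trbv3 took the largest mean share of V counts over the 10 libraries, 14.3%, with 12.4 to 18.4% per library. It was followed by Trbv13-2 (9.84%), Trbv5 (8.54%), Trbv12-2 (7.24%), Trbv16 (7.12%) and Trbv19 (7.09%). Of these Trbv5 was called (lower in Maf-KO gut, above), and the others were not. In the alpha locus the leading segments took Trav12-2 4.44%, Trav7-4 4.43%, Trav13-1 3.8%, Trav3-3 3.69%, Trav4-4-dv10 3.47% and Trav7-5 3.4%. Alpha usage was thus spread over many more segments.

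The effective number of V segments is the number of equally used segments that would give the same evenness (the exponential of the Shannon entropy). For alpha V it was 52.1 in both WT gut libraries, 50.6 and 53.7 in Maf-KO gut and 55.2, 58.7 and 55.3 in WT spleen. In Maf-KO spleen it was 43.1, 56.4 and 55.7, so that Maf-KO spleen 1 stood apart. For beta V it was 15.8 and 15.1 in WT gut, 15.7 and 16 in Maf-KO gut and 16.4, 16.6 and 16.6 in WT spleen. The 3 Maf-KO spleen libraries had 15.5, 16.2 and 16.5. In the 4 pairs of libraries with the same title number, gut was lower than spleen in 4 of 4 for both loci, by 3.52 ± 1.66 (SD) for alpha and 0.757 ± 0.489 (SD) for beta. When libraries were thinned to the same number of V counts, the number of segments seen was lower in gut in 3 of 4 pairs for alpha and 2 of 4 for beta.

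**Figure D5:**
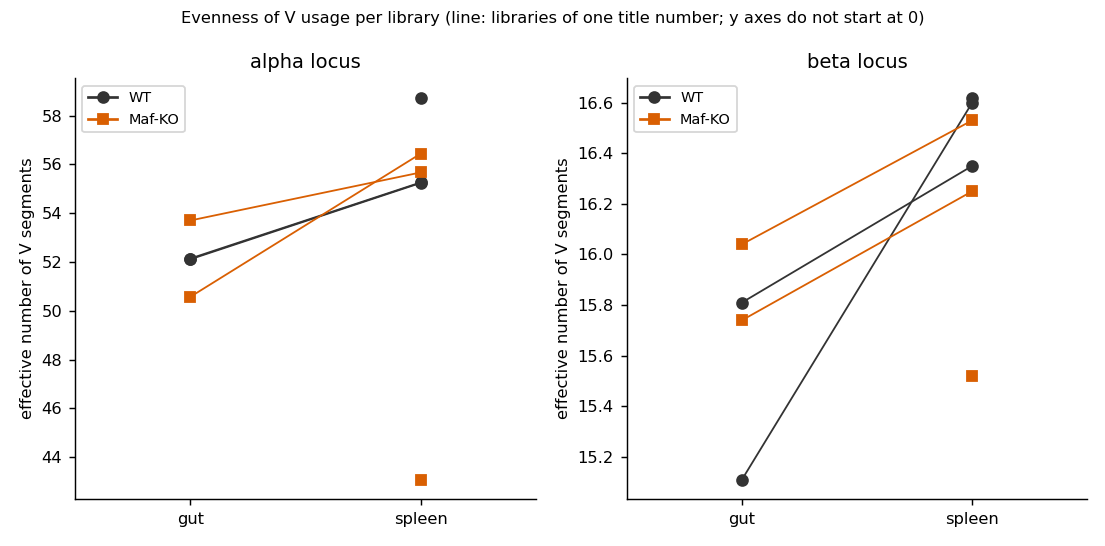
Effective number of V segments (vertical axes, not from 0) in gut and spleen libraries for the alpha (left) and beta (right) locus; lines join libraries with the same title number, and the WT lines of the alpha locus nearly coincide. All 4 lines rise from gut to spleen in both loci, and Maf-KO spleen 1, which has no gut partner, is at 43.1 for alpha and 15.5 for beta.

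Some shares were high in a single library. By a limit set after the values were seen (at least 40 counts and at least 2 times the highest share elsewhere), 4 alpha V segments and no beta V segment stood out. In Maf-KO spleen 1 Trav12-2 took 10.5% of alpha V counts (95% Wilson interval 9.47 to 11.7), against 2.75 to 4.44% in the other libraries, and Trav6-2 took 5.97% (5.17 to 6.89) against 0.323 to 1.26%. In WT gut 3 Trav7-5 took 8.28% (7.31 to 9.36) against 2.21 to 3.72%. In Maf-KO gut 3 Trav9n-1 took 0.875% (0.653 to 1.17) against 0 to 0.396%.

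The likeness of V usage was measured by the Bray-Curtis distance, which is 0 for equal shares. For alpha V it averaged 0.197 between gut and spleen libraries of the same title number (4 pairs) and 0.216 between gut and spleen libraries of the same genotype with other numbers (8 pairs). For beta V the averages were 0.0937 and 0.114. Both exceeded what counting error alone would give (0.0683 to 0.0912 for alpha and 0.0216 to 0.0304 for beta). Distances within a group averaged 0.189 for alpha (0.116 to 0.252) and 0.0927 for beta (0.043 to 0.137), and these ranges overlapped those between tissues.

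Segments of invariant receptors were read as well. Trav11, used with Traj18 by invariant NKT cells, had a level of 0 to 0.195 CPM in all libraries, at or below the floor. All of its 50-base stretches occur in another alpha V member (100%), so how multi-mapping reads were counted bears on this value. The same holds for all stretches of Trav11d (100%), which had 0 to 1 counts per library. Trav11n had 1 to 10 counts, and 21.4% of its stretches occur in another alpha V member. Traj18 was at 4.77 to 8.81 CPM. Trav1 and Traj33, which form the receptor of MAIT cells, were at 2.47 to 7.66 and 1.6 to 4.01 CPM. Trav11 was too low to be tested, and the other 3 were not called between tissues or genotypes.

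The rest of the receptor apparatus was read from lists of other genes. Among 12 tested genes of the receptor complex and coreceptors, 2 were higher and 1 lower in WT gut (median log2 0.06) and 4 higher and 1 lower in Maf-KO gut (0.25). The called shares were 25% and 41.7%, where 28.0% and 28.5% of all genes were called. Cd6, which tunes receptor signals at the cell surface, was higher by 0.76 in WT (adjusted p = 0.00313) and 1.22 in Maf-KO (0.000202, edgeR). The costimulatory receptor gene Cd28 was higher by 0.63 (adjusted p = 0.00386) and 0.40 (0.0317), and Cd8b1, a coreceptor gene of CD8 T cells, was lower by a log2 of -1.76 (0.00514) and -1.19 (0.0268). Cd5, an inhibitor of receptor signals, was higher in Maf-KO (0.58, adjusted p = 0.00355), as was Cd4 (0.52, adjusted p = 0.0333), which is named after its values were seen. The CD3 chain genes Cd3d, Cd3e, Cd3g and Cd247 were not called in either genotype. Ptcra, the partner of the beta chain in immature thymocytes, had no count in any library.

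Of 31 genes of proximal receptor signalling, 3 were higher and 9 lower in WT gut (median log2 -0.12), and 6 were higher and 6 lower in Maf-KO gut (0.05), which is 38.7% called in each. The lowest adjusted p were those of Prkcq, a kinase that links the receptor to NF-kappaB (log2 -1.48 and -1.24), the diacylglycerol kinase gene Dgkz (-1.56 and -1.16) and Sla, an adaptor that lowers receptor levels (1.58 and 1.65). Dgka was lower in WT (-1.10, adjusted p = 0.000444, edgeR) and Lax1, an inhibitory adaptor gene, in Maf-KO (-1.20, adjusted p = 0.0027, edgeR).

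Of 10 tested genes of V(D)J recombination, 1 was higher and 3 lower in WT gut (median log2 -0.28), and 3 were lower in Maf-KO gut (-0.37), which is 40% and 30% called. The recombinase genes Rag1 and Rag2 were at 0 to 0.178 CPM in all libraries. Xrcc6 (-0.49 and -0.37) and Prkdc (-0.43 and -0.41), genes of DNA end joining, were lower in both genotypes, Dntt (-4.63) was lower in WT and Lig4 (-1.41) in Maf-KO. Dclre1c, the nuclease gene Artemis, was higher in WT (0.55, adjusted p = 0.0347, edgeR). Dntt, which adds bases at junctions, was at 4.09 CPM in WT spleen 1 and at most 1.17 CPM in the other libraries.

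Of 17 factors that bind receptor enhancers and promoters, 4 were higher and 4 lower in WT gut (median log2 -0.08), and 5 were higher and 3 lower in Maf-KO gut (-0.02), which is 47.1% called in each. Gata3 (2.22 and 1.54) and Runx1 (0.82 and 1.10) were higher in gut in WT and Maf-KO, and Tcf7 (-2.34 and -2.19) was lower. None of the 4 lists had a gene called between genotypes. In gut the unadjusted p was 0.00282 for Cd6 (log2 0.61) and 0.00301 for Cd5 (0.48).

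Genes that lie between receptor segments were checked as neighbours. The beta locus holds 14 such genes, mainly trypsinogens, which are digestive enzymes of the pancreas. Prss2 had 223 and 32 counts in WT gut and 15 and 28 in Maf-KO gut, and Try4 had 67 and 20 counts in WT gut and none in Maf-KO gut. With Try5 and 2210010C04Rik these were higher in WT gut than in WT spleen (log2 3.51 to 7.04, adjusted p = 0.00226 to 0.00588, edgeR), unlike the beta members. Pancreatic acinar markers moved with them. Their summed level was 132 and 33 CPM in WT gut, 14.5 and 25.1 CPM in Maf-KO gut and 3.63 to 21.1 CPM in spleen, and their part in these neighbour values was not tested. The alpha locus holds 5 other genes, all at 1.08 CPM or less, and the gamma locus holds none.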

How the data were processed

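RNA of sorted Tregs was measured in 10 libraries, grouped by the labels. The authors' deposited table holds raw read counts per gene, and the deposited per-library tables hold log2 FPKM of 12252 genes, including 153 of the 232 members; log2 values were used only for per-length levels and as an alternative. Subread, featureCounts, limma and the builds GRCm38 and mm10 are named in the submitters' processing notes; those notes as used here state neither the strand setting nor the handling of multi-mapping reads. All 10 columns were used. The 852 entries without a symbol stayed in the totals.

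Counts were fitted in edgeR 4.0.16 (R 4.3.3) with 1 quasi-likelihood model over all 10 libraries and 4 groups, after filterByExpr (minimum count 10, minimum total 15; 13214 genes) and TMM scaling. P-values are two-sided and Benjamini-Hochberg adjusted over all genes tested, with calls made below 0.05. The SE is the size of the log2 fold change divided by the square root of F. In simulated counts for Maf-KO against WT in gut (12965 genes), 58.4% of 2-fold and 84.7% of 4-fold changes were recovered. The changes were placed only in genes averaging above 1 CPM, with spread taken from the trend over genes. Recovery may therefore be lower for members with few counts or more spread. Alternatives were DESeq2 1.42.0, DESeq2 size factors, limma-voom (limma 3.58.1), library totals (added after the data were seen), no count filter, receptor and immunoglobulin entries left out of totals, only the groups compared, the authors' log2 values (constant gene levels only), each library left out, and the title number as a block. Library titles carry numbers that 4 gut libraries share with 4 spleen libraries. The deviations of same-numbered libraries from their group means correlated (r = 0.313, 0.255, 0.382 and 0.36 across genes). WT spleen 3 and Maf-KO spleen 2, which differ in number and genotype, gave r = 0.26, above the lowest of these values (0.255). Deviations of the 2 gut libraries of a genotype mirror each other (r = -1), so these values are not separate checks. The labels do not say what the numbers name, and the block only treats them as pairs. Replicates of a group differed by more than counting error (chi-square per degree of freedom 13.9 to 32.6).

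Named were every constant gene, every called member, the leading 6 alpha and 6 beta and 3 gamma and 3 delta V segments by share, the segments of invariant receptors, up to 4 called genes per list and contrast (else up to 2 by unadjusted p) and the highest neighbours inside a locus. Members and lists were chosen with earlier results of these data known. All 232 members matched a RefSeq position (GRCm38.p6) and a GENCODE M21 transcript by symbol or gene identifier. Some genes and sequences are not reported here.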

Additional observations from a re-analysis of the deposited data

How the results depend on the processing

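Left-out libraries gave 6 to 14 member calls for gut against spleen in WT (12 with all libraries) and 4 to 16 in Maf-KO (15). Over all genes the same fits gave 2183 to 3597 calls in WT (3703 with all libraries) and 2118 to 3784 in Maf-KO (3772). With the title number as a random effect in limma-voom the member calls were 30 and 30 (41.6% and 43.7% of all genes were called). As a fixed block in edgeR, with 2 residual degrees of freedom, they were 27 and 22 (37.2% and 39.7% of all genes), which kept 24 of the 27 calls. With library totals instead of TMM, chosen after seeing the data, 26 and 16 of 150 members were called (17.3% and 10.7%). Over all genes that scaling called 5269 and 4944 of 13214 in either direction. DESeq2 called 2 members between genotypes in gut. The block changed no genotype call among members. Of 27 calls, 5 were kept under all alternatives, 22 were lost under at least 1 and 0 reversed. With library totals the alpha level (summed CPM) moved from 1921 to 1728 in WT gut, 1992 to 1780 in Maf-KO gut and 1585 to 1717 in WT spleen, the beta level from 1971 to 1762 in Maf-KO gut and 2348 to 2509 in Maf-KO spleen, and the gamma level from 25.2 to 22.7 in WT gut. Evenness of beta V usage was lower in gut in 4 of 4 pairs by effective number and in 2 of 4 by segments seen after thinning. The fixed block could not be fitted for the genotype comparisons, since a title number has 1 genotype. The cause of these shifts was not tested. Low counts kept 82 of 232 members out of the test, and groups of 2 or 3 libraries limit all tests.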
